A study of Mus musculus with 10 samples.

Results

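The 6 endothelin genes described here were the ligand genes Edn1 and Edn3, the receptor genes Ednra and Ednrb, and the converting enzyme genes Ece1 and Ece2. They were taken from the count table by gene symbol, and 6 of 6 were found among 55385 genes. All 6 passed the filter on low counts, which left 18491 genes. The libraries held total RNA of left ventricles, depleted of ribosomal RNA, from mice whose strain the labels spell C56Bl6, in 2 groups. The Control group, 5 libraries, came from mice on a standard diet, and the HFpEF group, 5 libraries, from mice given a high-fat diet together with L-NAME, which blocks nitric oxide synthases, for 6 weeks. This combined metabolic and hypertensive load is used as a model of heart failure with preserved ejection fraction (HFpEF). Age and sex of the mice are not given in the sources used here, nor whether each library came from 1 mouse, so p-values describe the spread between these libraries. The comparison asks how transcript levels in the ventricle differed between the combined regimen and the standard diet.

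Endothelins are short vasoactive peptides cut from larger precursors. Furin-like proteases release an inactive intermediate, which the membrane metalloproteases encoded by Ece1 and Ece2 cleave to the active peptide. In the heart and its vessels the type A receptor, the product of Ednra, sits mainly on smooth muscle and cardiac muscle cells, signals through Gq and G12/13 proteins and causes contraction and growth. The type B receptor, the product of Ednrb, is abundant on endothelial cells, where it stimulates nitric oxide release and clears endothelin from the blood. Endothelin-1 binds both receptors tightly, whereas endothelin-3, the product of Edn3, prefers the type B receptor.

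The ligand genes are shown by the bases that code for the mature peptide, because that stretch shows how the ligand whose transcript rose differs from the other. Each stretch holds 63 bases, encodes 21 residues, lies within 1 exon and contains 4 cysteine codons. Sequences are the plus strand of mm10, read 5′ to 3′ from GENCODE M21 transcripts, and capitals mark codons that encode another residue than in Edn1. Edn2, the third ligand gene, is shown for comparison. The stretches are chr13:42303649-42303711 (Edn1), chr4:120161951-120162013 (Edn2) and chr2:174761749-174761811 (Edn3).
Edn1: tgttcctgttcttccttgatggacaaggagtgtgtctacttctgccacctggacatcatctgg
Edn2: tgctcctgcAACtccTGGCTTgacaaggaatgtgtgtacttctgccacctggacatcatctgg
Edn3: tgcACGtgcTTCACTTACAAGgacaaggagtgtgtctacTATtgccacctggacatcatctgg
Edn3 differed from Edn1 at 13 bases, and 6 of its codons encode another residue, 5 of them near the start of the peptide. Edn2 differed from Edn1 at 10 bases, and 3 of its codons encode another residue. All capitals but 1 codon lay in the first part of the stretch, and the end of the peptide was encoded alike in the 3 genes.

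Totals per library ran from 31286355 to 46108710 counts, and Control 4 and Control 5 had the largest. Transcripts of the mitochondrial genome took 33.6% to 38.5% of the counts. HFpEF 1 stood apart from the other libraries on the second principal component (33.4, against -23.7 to 14.5 for the rest), while the first component separated the groups. Ventricular identity was checked by markers of cardiac and atrial muscle, which do not tell left from right ventricle. The cardiomyocyte markers summed to between 30045 and 33252 CPM in the libraries. Bmp10 and Sln, which mark atrial muscle, had at most 3 counts in any library, and Myl7 had at most 13. Of the other 3 atrial markers, Myl4 had 16 to 46 counts, Dkk3 17 to 66 and Nppa 462 to 2499.

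Of the 6 genes, Edn3 and Ednra were higher in HFpEF (edgeR quasi-likelihood test, Benjamini-Hochberg adjusted p below 0.05) and none was lower. The same test called 3.24% of all genes tested higher, 2.09% lower and 5.33% in either direction. Levels are given as CPM, which relate counts to the TMM-adjusted size of each library, and changes as log2 fold changes of HFpEF against Control with their standard error (SE). For the same 2 genes all HFpEF libraries lay above all Control libraries, beside 3.88% of all genes tested that did so, 2.93% with HFpEF below and 6.81% in either direction. The median log2 fold change was -0.01 over the 6 genes and -0.01 over all genes tested. Both calls held in each of the 19 alternative settings tried.

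**Figure D1:**
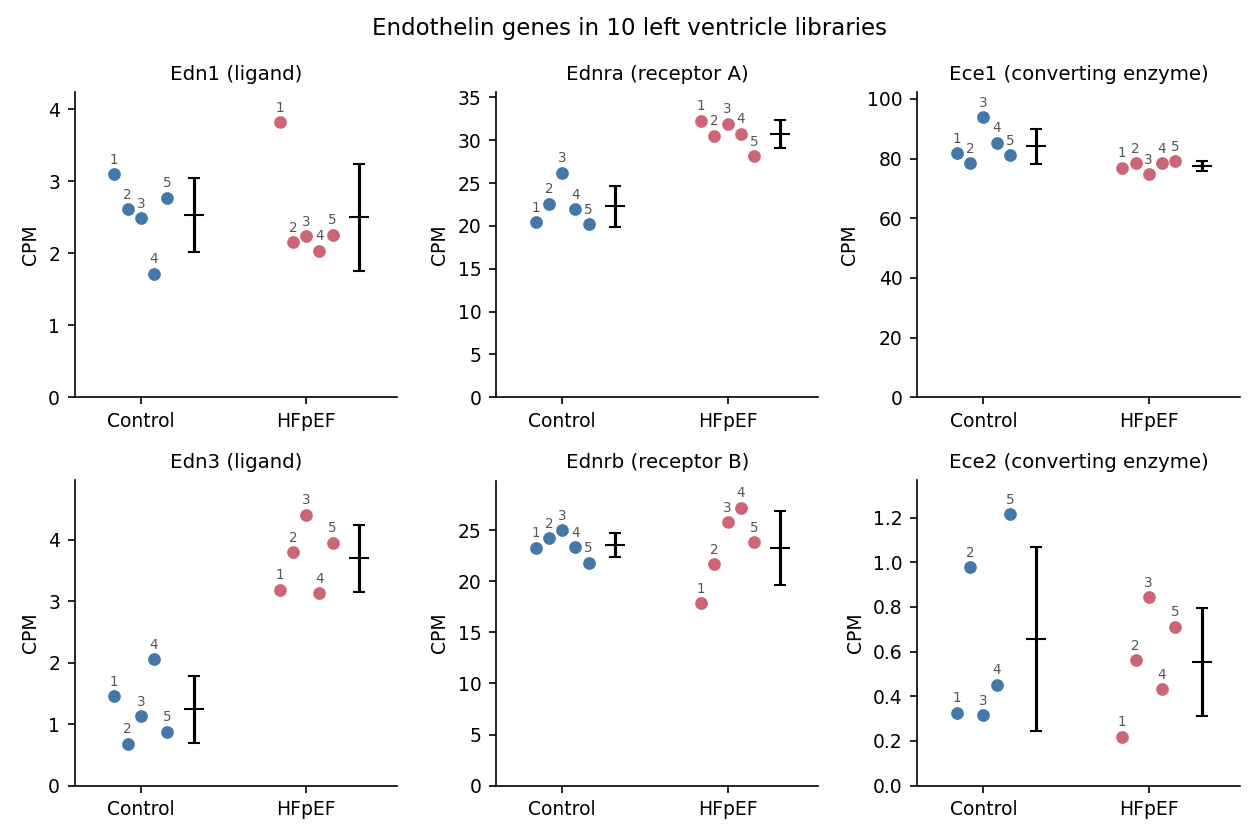
CPM of each endothelin gene (vertical axes, each starting at 0) in the 5 Control and 5 HFpEF libraries (points, numbered by replicate), with the group mean and SD (black). Edn3 and Ednra are the 2 panels in which all HFpEF points lie above all Control points, and HFpEF 1 stands alone in the panel of Edn1.

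Edn3 (ENSMUSG00000027524.9, mm10 chromosome 2, 174760619 to 174784042, plus strand, protein-coding) encodes the precursor of endothelin-3, a peptide known best for guiding neural crest cells that carry the type B receptor. It was the member that changed most. Its level in Control 1 to 5 was 1.46, 0.681, 1.13, 2.05 and 0.876 CPM, resting on 49, 23, 36, 91 and 44 counts. In HFpEF 1 to 5 it was 3.19, 3.80, 4.41, 3.13 and 3.96 CPM, resting on 102, 122, 136, 94 and 128 counts. Every HFpEF library was above every Control library; Control 4 was the highest of its group, and HFpEF 4 and HFpEF 1 were the lowest of theirs. The mean rose from 1.24 ± 0.54 to 3.70 ± 0.54 CPM (SD, n = 5). The log2 fold change was 1.56 ± 0.23 (SE; 95% interval 1.07 to 2.06; edgeR adjusted p = 0.00184), a 2.96-fold difference with an interval from 2.09 to 4.17. Ranked by log2 fold change, Edn3 had rank 9 among the 599 genes called higher. Leaving out each library in turn gave log2 fold changes of 1.43 to 1.85, all called. RNA from whole tissue cannot tell more cells of a type from more RNA per cell, here or for any gene below.

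Edn1 (ENSMUSG00000021367.8, chromosome 13, 42301476 to 42307990, plus strand) encodes the precursor of endothelin-1, the main vasoconstrictor of the family, made largely by endothelial cells. Its level in Control 1 to 5 was 3.09, 2.61, 2.48, 1.72 and 2.77 CPM, and in HFpEF 1 to 5 it was 3.82, 2.15, 2.24, 2.03 and 2.26 CPM. The groups overlapped: HFpEF 1 was the highest of all 10 libraries, whereas the other HFpEF libraries lay within the Control range. The means were 2.53 ± 0.51 and 2.50 ± 0.74 CPM (SD, n = 5). The log2 fold change was -0.01 ± 0.19 (SE; edgeR adjusted p = 0.981). Its 95% interval ran from -0.42 to 0.39, so that differences between 0.749-fold and 1.31-fold lay inside it. Without HFpEF 1 the log2 fold change was -0.22, also not called.

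The third ligand gene, Edn2 (ENSMUSG00000028635.7), had 0, 1, 0, 2 and 2 counts in Control 1 to 5 and 1, 0, 0, 0 and 0 in HFpEF 1 to 5. All of these lie below the 3 counts that a library with 0 counts still allows, so Edn2 was not detectable at this depth and no fold is given. The ligand transcripts detected were those of Edn1 and Edn3.

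Ednra (ENSMUSG00000031616.7, chromosome 8, 77663031 to 77724464, minus strand) encodes the type A receptor. Its level in Control 1 to 5 was 20.4, 22.6, 26.2, 21.9 and 20.2 CPM, and in HFpEF 1 to 5 it was 32.3, 30.5, 31.9, 30.7 and 28.1 CPM. All HFpEF libraries exceeded Control 3, the highest Control library, and HFpEF 5 came closest to it. The mean rose from 22.3 ± 2.42 to 30.7 ± 1.64 CPM (SD, n = 5). This was a 1.38-fold difference (interval 1.25 to 1.53), a log2 fold change of 0.47 ± 0.07 (SE; edgeR adjusted p = 0.00105). With 1 library left out at a time it ranged from 0.44 to 0.53, with adjusted p values up to 0.0050. The change was smaller than that of Edn3, and Ednra took rank 180 among the 599 genes called higher. An opposite-strand gene model, 4933431K23Rik, covers 1.66% of its exonic bases.

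Ednrb (ENSMUSG00000022122.15, chromosome 14, 103814625 to 103844402, minus strand) encodes the type B receptor. Its level in Control 1 to 5 was 23.3, 24.2, 25.0, 23.3 and 21.8 CPM, and in HFpEF 1 to 5 it was 17.9, 21.7, 25.8, 27.2 and 23.8 CPM. HFpEF 4 was the highest and HFpEF 1 the lowest of all 10 libraries, so the HFpEF values enclosed the Control values. The means were 23.5 ± 1.18 and 23.3 ± 3.66 CPM (SD, n = 5), with the wider spread in HFpEF. The log2 fold change was -0.02 ± 0.09 (SE; 95% interval -0.21 to 0.18; edgeR adjusted p = 0.948), and without HFpEF 1 it was 0.07, not called either.

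Whether the receptor genes moved apart was tested on the log2 ratio of Ednra to Ednrb CPM within each library, a ratio used here only to compare libraries. In Control 1 to 5 the log2 ratio was -0.19, -0.10, 0.07, -0.09 and -0.11, and in HFpEF 1 to 5 it was 0.85, 0.50, 0.31, 0.18 and 0.24. Every HFpEF library lay above every Control library; HFpEF 1 was the highest, HFpEF 4 the lowest of its group, and Control 3 the highest Control library. The mean log2 ratio was -0.08 ± 0.09 in Control and 0.42 ± 0.27 in HFpEF (SD, n = 5). The difference of 0.50, or 1.41-fold, had a two-sided p of 0.00794 in an exact permutation test, the smallest value that the 252 arrangements of 5 and 5 labels can give. HFpEF 1, the library with the lowest Ednrb level, had the largest ratio, and without it the difference was smaller, at 0.39. The exact permutation p of 0.00794 for that difference was again the smallest value that the remaining libraries can give.

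**Figure D2:**
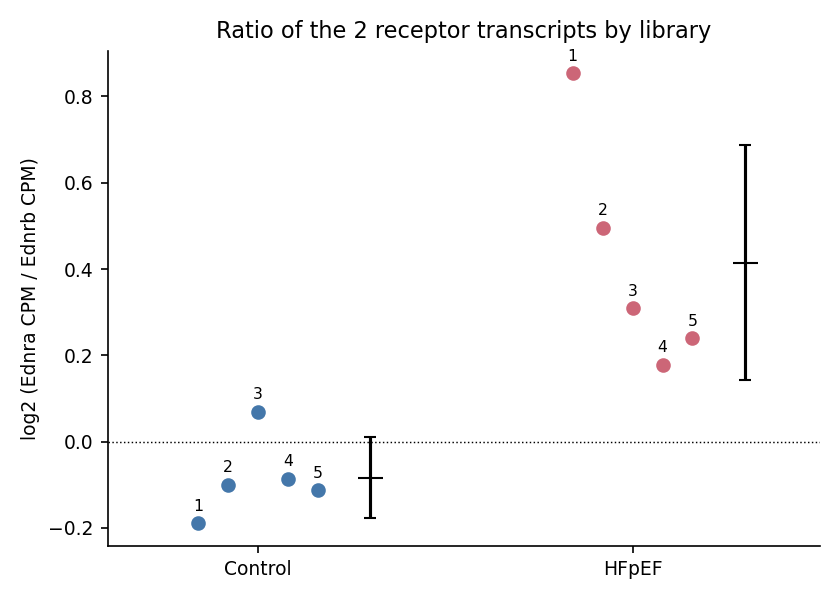
log2 ratio of Ednra to Ednrb CPM (vertical axis) in each Control and HFpEF library (points, numbered by replicate), with the group mean and SD (black). The HFpEF libraries lie between 0.18 and 0.85 and the Control libraries between -0.19 and 0.07.

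Ece1 (ENSMUSG00000057530.14, chromosome 4, 137862237 to 137965229, plus strand) encodes endothelin converting enzyme 1, the protease that produces most endothelin-1. Its level in Control 1 to 5 was 81.9, 78.4, 93.8, 85.3 and 81.2 CPM, and in HFpEF 1 to 5 it was 76.9, 78.5, 74.9, 78.5 and 79.2 CPM. The HFpEF libraries lay close together at or under the low end of the Control range, and Control 2 fell among them. The means were 84.1 ± 5.94 and 77.6 ± 1.74 CPM (SD, n = 5). The log2 fold change was -0.12 ± 0.05 (SE; 95% interval -0.22 to -0.01), with an edgeR p of 0.0371 before adjustment and 0.210 after it, so Ece1 was not called. It stayed negative with each library left out in turn, from -0.13 to -0.07.

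Ece2 (ENSMUSG00000022842.18, chromosome 16, 20629828 to 20646485, plus strand) encodes a related converting enzyme that works at acidic pH and is best known from neural and endocrine tissue. It had 11, 33, 10, 20 and 61 counts in Control 1 to 5 and 7, 18, 26, 13 and 23 in HFpEF 1 to 5. The groups overlapped, Control 5 held the most counts, and HFpEF 1 the fewest. The means were 0.657 ± 0.413 and 0.554 ± 0.243 CPM (SD, n = 5), and the log2 fold change was -0.28 ± 0.42 (SE; 95% interval -1.20 to 0.63; edgeR adjusted p = 0.767). Without Control 5 it was 0.10, so no direction is given. The gene model Gm49333 shares 57.5% of the exonic bases of Ece2 on the same strand, and it was given 22, 0, 13, 22 and 14 counts in Control 1 to 5 and 14, 0, 0, 0 and 11 in HFpEF 1 to 5. The counting could thus split reads between the 2 models, and Ece2 values are uncertain. Summed before the fit, an alternative chosen after seeing the data, both together gave -0.55 ± 0.25 (SE; edgeR adjusted p = 0.226).

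**Figure D3:**
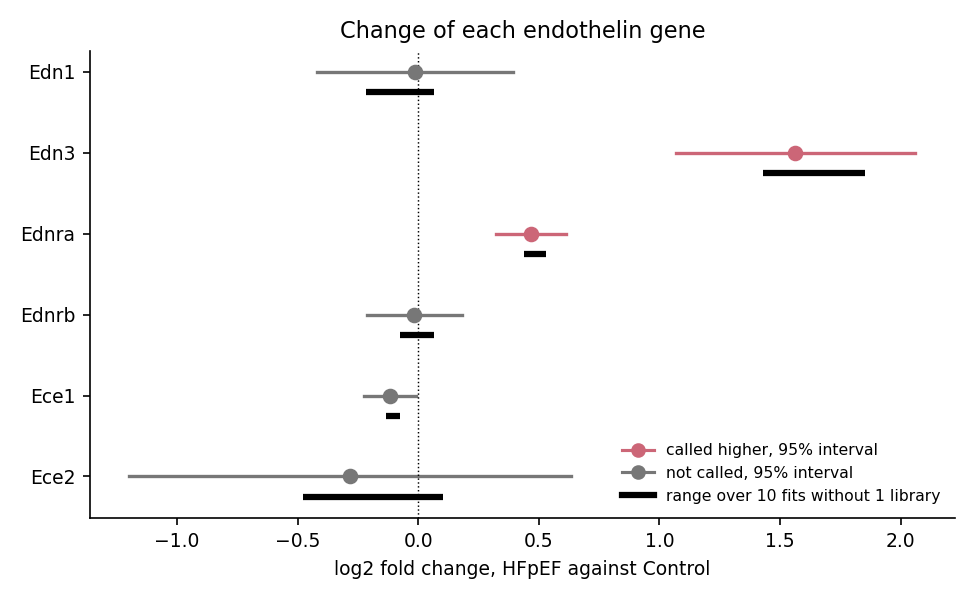
log2 fold change of HFpEF against Control (horizontal axis) for each endothelin gene, with its 95% interval (coloured line, 5 libraries a group) and the range over the 10 fits that each leave out 1 library (black bar). Edn3 at 1.56 and Ednra at 0.47 are the genes called higher, and the intervals of Edn1, Ednrb and Ece2 include 0.

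Levels were then compared between genes, as CPM per kb of merged exons. In Control the order was Ece1 at 15.9 ± 1.12, Ednrb at 5.51 ± 0.278, Ednra at 4.07 ± 0.443, Edn1 at 1.18 ± 0.239, Edn3 at 0.302 ± 0.131 and Ece2 at 0.129 ± 0.081 CPM per kb (SD, n = 5). Neighbours in this order did not overlap between libraries, except Edn3 and Ece2. In HFpEF the order was Ece1 at 14.6 ± 0.329, Ednra at 5.61 ± 0.299, Ednrb at 5.45 ± 0.858, Edn1 at 1.17 ± 0.347, Edn3 at 0.899 ± 0.131 and Ece2 at 0.108 ± 0.047 CPM per kb. There Ednra overlapped Ednrb and Edn1 overlapped Edn3, and the other neighbours were apart. On this scale Edn1 had 3.93 times the mean level of Edn3 in Control and 1.30 times in HFpEF. Ednrb had 1.36 times the mean level of Ednra in Control and 0.972 times in HFpEF. The order within these pairs depends on the length used. By the longest transcript, Ednra was at 6.14 and Ednrb at 5.73 CPM per kb in Control, and Edn3 at 1.19 and Edn1 at 1.17 CPM per kb in HFpEF. The Control ratio of Edn1 to Edn3 was 2.98 by the longest transcript and 2.16 by coding length, where their libraries overlapped. By coding length the HFpEF values were 5.76 CPM per kb for Edn3 and 4.12 CPM per kb for Edn1.

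**Figure D4:**
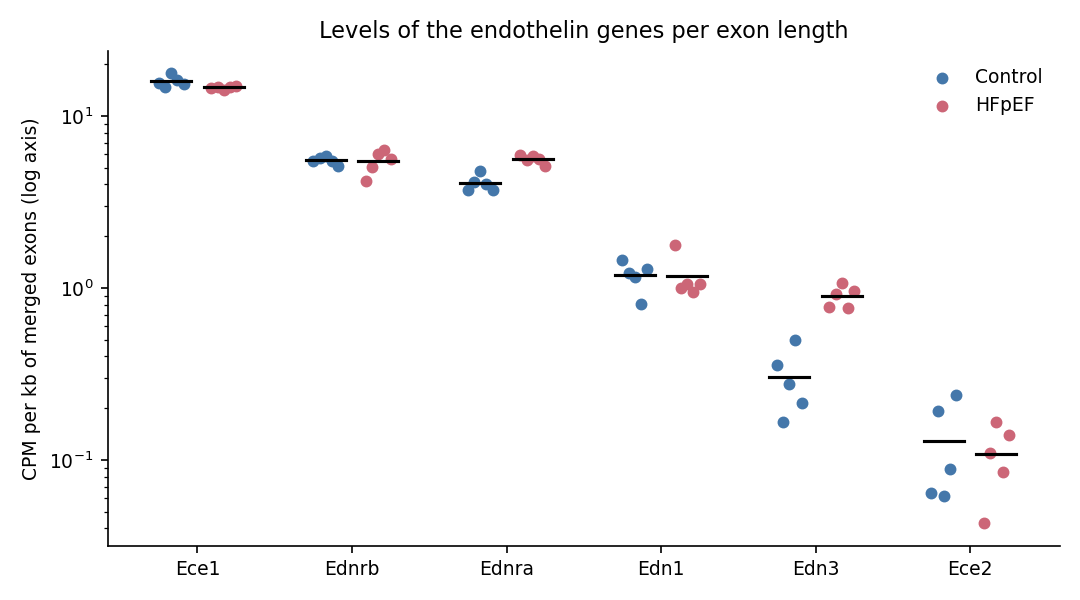
Level of each endothelin gene in CPM per kb of merged exons (log axis) in Control and HFpEF libraries (points), with group means (black lines). Ece1 stands highest in both groups, and the gap between Edn1 and Edn3 is narrower in HFpEF (1.17 against 0.899) than in Control (1.18 against 0.302).

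Transcripts of the cells that are known to carry these genes were counted in the same libraries. Beside Ednra, 6 of 6 smooth muscle markers had log2 fold changes above 0 (median 0.27) and edgeR called 0 of them, with 1 at an unadjusted p below 0.05 and 0 calls by DESeq2 or limma-voom. Their summed level was 275 to 350 CPM in Control and 321 to 384 CPM in HFpEF. Of that, Myocd alone held 92.6 to 112 CPM in Control and 104 to 115 CPM in HFpEF. For Myh11, myosin of smooth muscle, the log2 fold change was 0.30 ± 0.19 (adjusted p = 0.418), and for Acta2, smooth muscle actin, 0.47 ± 0.20 (adjusted p = 0.232). Of 8 pericyte markers edgeR called 0, with 0 at an unadjusted p below 0.05 and 0 by DESeq2 or limma-voom, and their sums were 1066 to 1222 CPM in Control and 1115 to 1194 CPM in HFpEF. Rgs5 (0.10 ± 0.05) and Kcnj8 (0.10 ± 0.06) were among them. Abcc9 alone held 335 to 421 CPM of the pericyte sum in Control and 326 to 370 CPM in HFpEF. Whether cardiac muscle gave part of the smooth muscle and pericyte sums was not tested. Of 8 cardiomyocyte markers 1 was lower, beside 2.09% of all genes tested. That marker was Tnnt2 of the thin filament (-0.22 ± 0.05, adjusted p = 0.0185), while Myh6 stood at -0.04 ± 0.05. The call of Tnnt2 was lost without Control 1, HFpEF 2 or HFpEF 4, with adjusted p values from 0.0502 to 0.0639, and with the replicate number as a block (0.0573). None of the markers of these 3 lists was at 0 in every library. Their part in the difference of Ednra was not tested.

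Beside Edn1, Ednrb and Ece1, which endothelial cells express, 2 of 10 endothelial markers were lower in HFpEF, beside 2.09% of all genes tested, and 2 of 10 had log2 fold changes above 0 (median -0.13). The count of calls stood at 0 without Control 1, HFpEF 3 or HFpEF 4, at 1 without Control 3, Control 5, HFpEF 2 or HFpEF 5, and at 3 without HFpEF 1 and by DESeq2. The 10 markers had a summed level of 858 to 1019 CPM in Control and 785 to 880 CPM in HFpEF. The lower ones were Egfl7, a secreted endothelial protein (-0.30 ± 0.07, adjusted p = 0.0225), and Emcn, a capillary and venous sialomucin (-0.27 ± 0.07, adjusted p = 0.0447). The junction gene Cdh5 was at -0.13 ± 0.06 and Pecam1 at 0.00 ± 0.06, neither called. The call of Egfl7 was lost without Control 1, HFpEF 3 or HFpEF 4 (adjusted p from 0.0543 to 0.0691). That of Emcn was lost without any 1 of 8 libraries, all but Control 4 and HFpEF 1 (from 0.0612 to 0.119). Of 5 endocardial markers tested, 2 were lower, beside 2.09% of all genes tested. They were Plvap (-0.57 ± 0.16, adjusted p = 0.0489) and Nrg1 (-0.93 ± 0.19, adjusted p = 0.0183), while Npr3 was at -0.22 ± 0.14. The 6 listed markers summed to between 76.4 and 107 CPM in Control and between 61.0 and 87.6 CPM in HFpEF. Most of this sum was Vwf, which is also in the endothelial list. Plvap lost its call without any 1 of 9 libraries, all but HFpEF 4 (from 0.0526 to 0.122), and also with the replicate number as a block (0.0701) and without Control 4 and Control 5 together (0.0973). Nrg1 lost it without HFpEF 5 (0.0512), with no filter beyond 1 count (0.0666) and with the block (0.124). None of these markers was at 0 in every library, and their part in the values of Edn1, Ednrb and Ece1 was not tested.

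Endothelin-3 also acts on cells of the neural crest, which carry the type B receptor. Of 4 Schwann cell markers tested, 4 had log2 fold changes above 0 (median 0.37) and 1 was called higher, beside 3.24% of all genes tested. That marker was Cdh19, a cadherin of Schwann cells (0.43 ± 0.09, adjusted p = 0.0135), whose call held in each of the 19 alternatives. The 6 listed markers summed to between 12.4 and 15.7 CPM in Control and between 14.4 and 21.03 CPM in HFpEF. Sox10, a neural crest transcription factor, was at 0.51 ± 0.22 (adjusted p = 0.203). Foxd3 had too few counts to be tested, with at most 13 in any library. The part of these cells in the difference of Edn3 was not tested.

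Of 8 fibroblast markers edgeR called 0, with 2 at an unadjusted p below 0.05, 1 by DESeq2, 1 without Control 2 and 0 by limma-voom, and sums were 802 to 957 CPM in Control and 888 to 991 CPM in HFpEF. Pdgfra was at 0.13 ± 0.06 and Col1a1 at -0.06 ± 0.12. Of 8 macrophage markers 0 had log2 fold changes above 0 (median -0.33), and edgeR called 0, with 6 at an unadjusted p below 0.05, 3 by DESeq2, 2 with the replicate number as a block, 1 without Control 4, 1 with no filter beyond 1 count and 0 by limma-voom. Their sums were 119 to 192 CPM in Control and 97.3 to 125 CPM in HFpEF, with Adgre1 at -0.23 ± 0.15 and Csf1r at -0.39 ± 0.13. The lymphatic (6 tested), mast cell (5), epicardial (5) and blood (5) lists had 0 calls by edgeR, DESeq2 or limma-voom and 0 members at an unadjusted p below 0.05. Their named members were Prox1 (0.05 ± 0.06), Lyve1 (-0.06 ± 0.19), Cpa3 (0.35 ± 0.27), Kit (-0.02 ± 0.10), Upk3b (0.01 ± 0.20), Wt1 (0.23 ± 0.11) and Hba-a1 (0.31 ± 0.17). Without HFpEF 5, edgeR called Hba-a1 higher (0.44, adjusted p = 0.0191). Of 5 adipocyte markers none had enough counts to be tested, Adipoq and Plin1 among them, and Ucp1 was at 0 in every library. The part of these cell types in the differences of Edn3 and Ednra was not tested.

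Genes of the surrounding pathway were counted next, against 3.24% of all genes called higher and 2.09% called lower. Of the other peptide and peptidase genes 4 of 7 were tested and 1 was higher, Mme, which encodes neprilysin, a protease that degrades endothelins and natriuretic peptides. Mme lay between 10.6 and 14.9 CPM in Control and between 16.1 and 23.1 CPM in HFpEF, without overlap (log2 fold change 0.52 ± 0.12 SE, edgeR adjusted p = 0.0212). The call was lost without Control 1 or HFpEF 5 (adjusted p up to 0.0569), with no filter on low counts (0.0535), and without Control 4 and Control 5 together (0.0506), an alternative chosen after seeing the data. The mast cell protease genes Cma1 and Mcpt4 were at 0.59 ± 0.32 (adjusted p = 0.318) and 0.34 ± 0.33 (adjusted p = 0.616). Of the 4 tested genes, 3 had log2 fold changes above 0.

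Of 21 genes for proteins that carry the receptor signal through Gq and G12/13, 2 were higher and 0 lower (median 0.04). Of all genes tested, 3.24% were called higher and 2.09% lower. The number called in this list ran from 1 to 2 without 1 library and from 1 to 3 in the other alternatives. Prkce encodes protein kinase C epsilon, which diacylglycerol activates downstream of Gq. Its level was 24.5 to 27.1 CPM in Control and 29.0 to 34.1 CPM in HFpEF (log2 fold change 0.30 ± 0.05 SE, adjusted p = 0.00427), and the call held in all 19 alternatives. Arhgef12 encodes a guanine nucleotide exchange factor that G12/13 proteins activate (0.18 ± 0.04, adjusted p = 0.0210). Its call was lost without Control 1, HFpEF 3 or HFpEF 5 (adjusted p up to 0.0596), without Control 4 and Control 5 together (0.0516) and with the replicate number as a block (0.0876). The G protein genes Gnaq (0.06 ± 0.04) and Gna11 (0.03 ± 0.05), which couple the type A receptor to phospholipase C, were not called. Of 11 genes that dampen such receptors (RGS proteins, receptor kinases, arrestins), edgeR called 0, with 4 at an unadjusted p below 0.05, 1 by DESeq2 and 0 by limma-voom. Without Control 4 or without HFpEF 1, 1 of them was lower, and without HFpEF 5, 1 was higher. The smallest p among them was that of Grk5, a receptor kinase (0.23 ± 0.07, adjusted p = 0.0657), which was called without HFpEF 5 (0.0202), with no filter on low counts (0.0362) and by DESeq2 (0.0320).

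Ednra was set beside other receptors that couple to Gq. Of 23 such genes 19 were tested, and 1 was higher and 0 lower (median 0.01), beside 3.24% and 2.09% of all genes tested. The count higher was 3 without Control 5 and by DESeq2, and 2 without Control 4, without HFpEF 1, without Control 4 and Control 5 together, with RLE scaling and with the stricter filter. The higher one was Adra1b, for the alpha-1B adrenergic receptor, which lay between 7.35 and 10.8 CPM in Control and between 14.2 and 18.5 CPM in HFpEF, without overlap (edgeR adjusted p = 0.000568). Its log2 fold change of 0.72 ± 0.10 was larger than the 0.47 ± 0.07 of Ednra; that difference was not tested. The angiotensin receptor gene Agtr1a was at -0.10 ± 0.08 (adjusted p = 0.579). Endothelin-1 is known to raise 10 listed genes in cultured cardiomyocytes. Of these, 0 were higher and 1 lower (median -0.06), beside 3.24% and 2.09% of all genes tested. That gene was Nppa, for atrial natriuretic peptide, which fell by 1.19 ± 0.22 on the log2 scale (adjusted p = 0.0187). Of its exonic bases 61.5% lie opposite the antisense model Gm13054, whose reads cannot be told apart without known strand. The call was lost with the replicate number as a block (0.103) and without Control 4 and Control 5 together (0.0872). Nppa is also 1 of 6 atrial muscle markers, 3 of them tested. The summed level of the 6 was 38.3 to 59.4 CPM in Control and 16.2 to 30.3 CPM in HFpEF, most of it Nppa itself at 36.5 to 57.0 and 14.5 to 28.4 CPM. The other tested atrial markers, Myl4 (-0.11 ± 0.25, adjusted p = 0.853) and Dkk3 (-0.43 ± 0.19, adjusted p = 0.204), were not called. The part of atrial tissue in this difference was not tested.

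**Figure D5:**
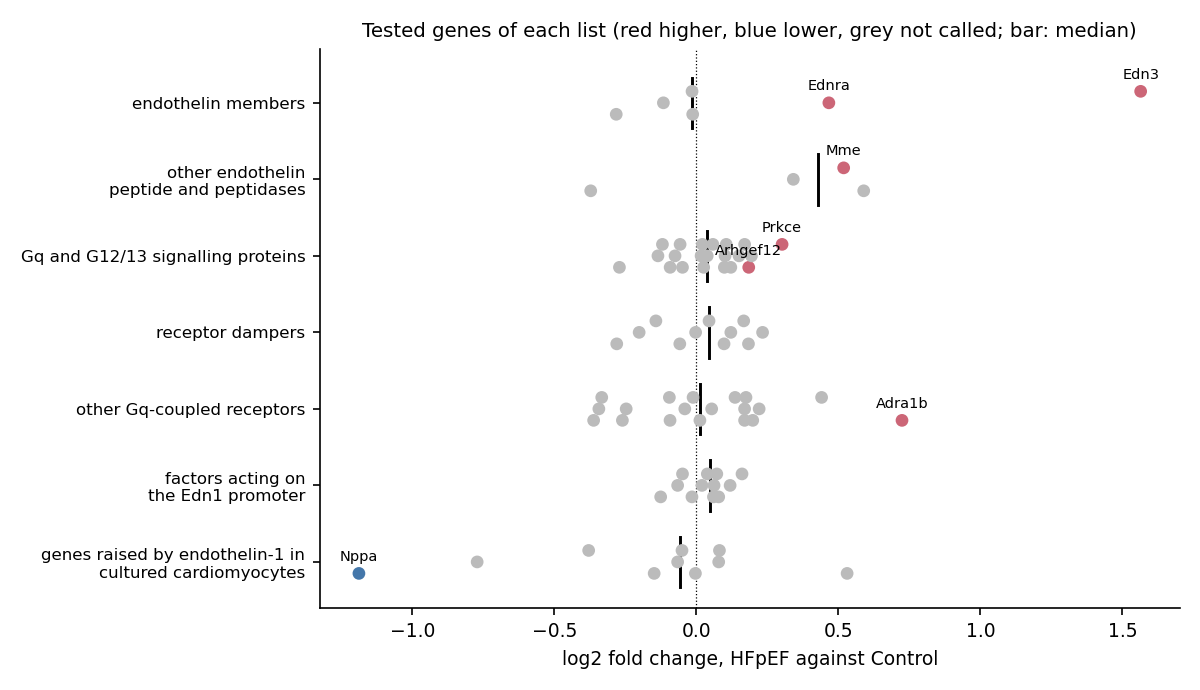
log2 fold change of HFpEF against Control (horizontal axis) of every tested gene in the endothelin genes and 6 related lists (rows), with the list median (black bar) and the called genes named. Edn3 has the largest value shown, at 1.56, and Nppa the lowest, at -1.19.

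The promoters of the called genes Edn3 and Ednra are shown as the 250 bases before their RefSeq start (GRCm38.p6, 5′ to 3′ on the gene's strand), because these genes moved in the same direction. Edn3 is chr2:174760369-174760618 on the plus strand and Ednra is chr8:77724453-77724702 on the minus strand. No base is in capitals, because no motif searched was found.
Edn3: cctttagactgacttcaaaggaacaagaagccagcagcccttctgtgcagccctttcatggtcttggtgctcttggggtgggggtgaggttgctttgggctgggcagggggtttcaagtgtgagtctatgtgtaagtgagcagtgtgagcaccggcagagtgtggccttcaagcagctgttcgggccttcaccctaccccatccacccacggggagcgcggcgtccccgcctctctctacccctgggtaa
Ednra: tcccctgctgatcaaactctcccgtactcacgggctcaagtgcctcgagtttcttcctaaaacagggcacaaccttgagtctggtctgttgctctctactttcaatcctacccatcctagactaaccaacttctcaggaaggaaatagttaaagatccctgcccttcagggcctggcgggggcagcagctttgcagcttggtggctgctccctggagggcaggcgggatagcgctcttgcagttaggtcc
The windows searched ran from 250 bases before to 50 after the start, on both strands. The motifs, with the share of 32851 RefSeq promoter windows that hold each, were GTAAACA for FoxO factors (3.65%), TGACTCA (5.20%) and GTGACTAA (0.63%) for AP-1, AGATAA for GATA factors (11.2%) and ACGTG for hypoxia-inducible factors (19.6%). The others were the E-box CACGTG (7.15%), which contains the hypoxia letters, GGGCGG for SP1 (35.7%) and TATAAA (13.6%). None of these letters was in the window of Edn3, Ednra or Ednrb. Hypoxia letters also lay upstream in 1 of 4 Ece1 windows (90 bases before the start, within an E-box) and in the Ece2 window. SP1 letters were in 3 of 4 Ece1 windows and upstream in that of Ece2. Ece1 windows 1 and 2 overlap and hold the same SP1 sites, which reach or follow the start of window 1 and lie upstream in window 2. The Edn1 window held the letters of GATA, hypoxia and AP-1 elements just after its RefSeq start. They are shown in 2 pieces from the plus strand of chromosome 13, at chr13:42301484-42301501 and chr13:42301511-42301518, with the motif letters in capitals (GATA and hypoxia letters read on the minus strand).
Edn1 GATA and hypoxia: TTATCTctggctgCACGT
Edn1 AP-1: GTGACTAA
Of the 12 genes for factors known to act on the Edn1 promoter, edgeR called 0, with 3 at an unadjusted p below 0.05, 1 by DESeq2 and 0 by limma-voom (median log2 fold change 0.05). The smallest p was that of Arnt, the partner of hypoxia-inducible factors (0.16 ± 0.05, adjusted p = 0.0665), which was called without Control 3 (0.0427) and by DESeq2 (0.0217). Hif1a was at 0.12 ± 0.05 (adjusted p = 0.154) and Gata2 at -0.05 ± 0.08 (adjusted p = 0.797).

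The genes most like each member were sought as a description, by Pearson's r of log2 CPM less the group mean over the 10 libraries, among 12847 genes whose mean log2 CPM was 1 or more (12848 for Ece2). For Edn3 they included Esyt1 (r = 0.91) and the pseudogene Morf4l1-ps1 (0.90). For Ednra they were Gm49167 (0.92), Gm38357 (0.91) and Pik3c2b (0.89), and for Edn1 they were Ctdspl2 (0.96), Gm43259 (0.94) and Gm37258 (0.94). For Ednrb they were Mrpl16 (0.94), Stx4a (0.94) and Copz2 (0.93). For Ece1 they were Selenow (0.95), the endothelial junction gene Cdh5 (0.95) and A430110L20Rik (0.94), and for Ece2 they were Rfng (0.95), Xpr1 (0.94) and Taf13 (0.94). These values of r are the highest of many, and the points share libraries. Spearman's rho was 0.79, 0.76 and 0.87 for the genes named for Ednrb, and 0.79, 0.88 and 0.84 for those of Ece1. For the genes named for the other members it ran from 0.87 (Gm38357) to 0.98 (Ctdspl2).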

How the data were processed

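RNA-seq libraries of mouse left ventricle, 5 Control and 5 HFpEF, were analysed from 1 table. The submitters' processing notes name Bowtie2 2.1.0, RSEM 1.2.15 and mm10, without their role. The deposited values are read as RSEM expected counts per gene. They are whole numbers, and rounding changed 0 of them. The sources used here do not give strandedness or the authors' annotation release. The 92 ERCC spike-in rows held 0 counts and were left out.

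Genes were kept by filterByExpr (minimum count 10) and tested with edgeR 4.0.16 in R 4.3.3 (TMM, robust quasi-likelihood, group as the only term, Benjamini-Hochberg adjustment over 18491 genes, threshold 0.05, 95% intervals). The test was first tried on simulated counts. Depth per library was 31286355 to 46108710 counts, and every pair of libraries within a group differed beyond counting noise. The receptor ratio was tested by exact permutation, two-sided. Coordinates and lengths came from GENCODE M21, which matched 55144 of 55385 genes by identifier, and promoters from RefSeq GRCm38.p6.

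Alternatives were other scalings (RLE, upper quartile), no filter beyond 1 count or at least 1 CPM in 5 libraries, DESeq2 1.42.0, limma-voom 3.58.1, the replicate number as a block, no mitochondrial transcripts and each library left out. Control 4 and Control 5 left out together, and Ece2 summed with Gm49333, were chosen after seeing the data.

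The members, the lists and the rule for named genes were chosen with earlier results of these data known. The rule names the 6 members, Edn2, every called member of a pathway list (or the smallest p), the first 2 and any called gene of each marker list, and the 3 genes most like each member. A few further list members (Gnaq, Gna11, Agtr1a, Hif1a, Gata2, Cma1, Mcpt4, Bmp10, Myl4, Dkk3, Foxd3, Ucp1, Vwf, Myocd, Abcc9) are named for their roles or their share of a sum. They were chosen after their values were seen. Some genes that the rule names are not reported here.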

Additional observations from a re-analysis of the deposited data

Results flagged for a closer look

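The Edn1 level in HFpEF 1 was 3.82 CPM, far from the other 4 HFpEF libraries, which lay between 2.03 and 2.26 CPM. Its gap to the nearest of them took 0.875 of the range of the group, above Dixon's 95% critical value of 0.71 for 5 samples. It was 1 of 14 groups of values looked at in this way, and chance alone marks about 1 in 20.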

How the results depend on the processing

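Edn3 and Ednra were called, and Edn1, Ednrb, Ece1 and Ece2 were not, in the 19 alternatives tried for each. The stricter filter removed Ece2, and the sum with Gm49333 stands among its 19 in place of that filter. The number of members called was 2 throughout. Log2 fold changes over the fits without 1 library ran from 1.43 to 1.85 for Edn3, 0.44 to 0.53 for Ednra, -0.217 to 0.0659 for Edn1, -0.0764 to 0.0666 for Ednrb, -0.13 to -0.07 for Ece1 and -0.48 to 0.10 for Ece2. Without Control 4 and Control 5 together, Ece2 turned to 0.0315. The receptor ratio difference was 0.39 to 0.56 without 1 library. The labels do not say whether the replicate numbers pair the libraries. Same-numbered libraries correlated at -0.11 to 0.06 after removal of group means, and 2 of 5 Control libraries correlated best with their own number. No batch is stated in the labels, and these values cannot tell whether same-numbered libraries shared one. With the replicate block, the difference of 0.50 had an exact sign-flip p of 0.0625, the smallest 5 pairs allow, and 744 genes were called; no member's call changed. Calls over all genes numbered 985, against 554 without HFpEF 3, 630 without Control 1, 633 without HFpEF 4 and up to 1101 without another library, 952 by limma-voom and 1448 by DESeq2. Upper quartile scaling gave 526 higher and 450 lower genes, against 599 and 386. Signs near 0 also turned among genes that were not called. Without Control 4 and Control 5, Pecam1 was at -0.0163, Lyve1 at 0.157 and Upk3b at -0.0344. By upper quartile scaling Pecam1 was at -0.0101 and Upk3b at -0.000932, by limma-voom Upk3b was at -0.0237 and Gm49167 at 0.0163, and with the replicate block Upk3b was at -0.0187. Without 1 library the ranges were -0.0235 to 0.0697 for Pecam1, -0.173 to 0.128 for Lyve1, -0.118 to 0.0363 for Col1a1, -0.0912 to 0.0416 for Kit, -0.0828 to 0.166 for Upk3b, -0.0330 to 0.0114 for Morf4l1-ps1, -0.0936 to 0.0939 for Gm49167, -0.295 to 0.0545 for Gm38357, -0.0460 to 0.0429 for Mrpl16 and -0.00204 to 0.100 for Copz2. The cause of these changes was not tested. Genes near 1 CPM are limited by counts, and Edn2 was below detection. Ece2 was near that level, and so was Edn3 in Control (0.681 to 2.05 CPM, on 23 to 91 counts).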
